A study of Mus musculus with 24 samples.

Results

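The experiment described here is the response of wild-type (WT) mouse embryo fibroblasts to thapsigargin (TG), measured with 4 of the 24 arrays of the series. They are the 2 arrays labelled as WT cells given 1 µM TG for 6 h and the 2 arrays labelled as WT cells with no treatment, and the comparison between them was made across every gene measured. The whole series holds 12 groups of 2 arrays, from WT fibroblasts and from fibroblasts lacking the ubiquitin ligase genes Siah1a and Siah2 (KO), each untreated, deprived of oxygen, of glucose or of both for 12 h, or given TG or tunicamycin (TM) for 6 h. Only the WT and KO cells that were untreated or given TG, and the WT cells given TM, enter the tests below, and the deprived WT cells are given by their levels for a few genes. The cells are cultured fibroblasts from embryos of WT and KO mice, treated in duplicate, and nothing states that the duplicates were separate cultures, so that every p-value measures the spread between arrays, which may be technical. The labels give no dose of TM and no vehicle for the untreated arrays. The culture methods name DMSO as vehicle and a range of TM doses, but not which of these was used for the arrays, and the study gives the Siah1a genotype of its KO cells as null for the arrays but as heterozygous in the legend of other panels.

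Thapsigargin blocks SERCA, the pump that fills the endoplasmic reticulum (ER) with calcium, and TM blocks the first step of N-glycosylation, so that both leave unfolded proteins in the ER by different routes. Unfolded proteins are sensed by 3 ER membrane proteins, IRE1 (gene Ern1), PERK (Eif2ak3) and ATF6. IRE1 splices the mRNA of the transcription factor XBP1, PERK phosphorylates eIF2α and thereby favours translation of the transcription factor ATF4, and ATF6 is cut in the Golgi to release a transcription factor of its own. XBP1 and ATF6 are known to drive genes for chaperones, glycosylation, ER-associated degradation (ERAD) and vesicle transport, whereas ATF4 and its target CHOP (Ddit3) drive genes of amino acid supply, redox balance and cell death.

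Signal intensities were deposited after normalization, with no background subtracted, and a value of 235 was taken as the upper edge of the background. Across 25990 probes above it on at least 1 array, 13122 genes were tested, each by its brightest probe. The duplicates correlated at r = 0.994 for TG and 0.972 for untreated WT cells, and 0.0462% and 4.26% of the kept probes differed by 2-fold or more within the pair, so the untreated pair carried most of the spread. Of 16 fibroblast markers, 12 were above the background in both groups. Epithelial markers were above it for 1 of 12 genes in untreated and 3 of 12 in TG cells, endothelial markers for 2 and 3 of 10, blood markers for 2 and 1 of 10, and muscle markers for 1 of 11 in both. The summed level of 11 neural markers was 14318.5 and 10821 in untreated cells and 6966 and 8055 in TG cells, and that of 13 markers of bone, cartilage and fat cells was 7485 and 16341 against 5457 and 5753; their part in the results was not tested. In these bulk samples, fewer cells of a type and less RNA per cell cannot be told apart. The sample labels name no BeadChip. The array names printed on the study's heat map place the untreated WT arrays on a pair of BeadChips. They place the TG and TM arrays on another pair. By these names, TG and BeadChip cannot be told apart in the main comparison, whereas TG and TM lie on the same chips.

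Promoters of several genes that rose most with TG carry the DNA elements through which the ER stress factors are known to act, and their windows are shown because the groups of genes below are named after these factors. The sequences are RefSeq promoters of build GRCm38.p6, from 250 bases before to 50 after the start of each gene, printed 5′ to 3′ on the strand of the gene with the motif in capitals. The ER stress response element (ERSE, CCAAT and, 9 bases on, CCACG, searched on both strands) is bound by ATF6 with NF-Y. It was found in the windows of Hspa5 at chr2:34772000-34772068 (plus strand), of Syvn1 at chr19:6046507-6046575 (plus strand) and of Creld2 at chr15:88819495-88819563 (plus strand), where it lies in reverse complement and is shared with the neighbouring gene Alg12.
Hspa5: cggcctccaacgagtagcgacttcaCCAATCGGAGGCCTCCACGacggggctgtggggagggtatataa
Syvn1: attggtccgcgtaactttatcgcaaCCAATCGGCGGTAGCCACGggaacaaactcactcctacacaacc
Creld2: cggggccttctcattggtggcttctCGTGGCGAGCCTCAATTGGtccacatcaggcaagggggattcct
The related ERSE-II (ATTGG, 1 base, CCACG) was found in Herpud1 at chr8:94386352-94386412 (plus strand), and the C/EBP-ATF response element bound by ATF4 and CHOP (AARE, TGATGNAAN) in Asns at chr6:7693199-7693257 (minus strand) and, in reverse complement, in Chac1 at chr2:119351023-119351081 (plus strand), in Atf3 at chr1:191183411-191183469 (minus strand) and in Fgf21 at chr7:45615597-45615655 (minus strand).
Herpud1: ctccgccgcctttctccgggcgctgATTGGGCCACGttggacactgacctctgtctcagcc
Chac1: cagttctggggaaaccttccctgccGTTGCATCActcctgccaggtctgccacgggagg
Asns: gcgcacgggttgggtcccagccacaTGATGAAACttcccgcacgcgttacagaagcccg
Atf3: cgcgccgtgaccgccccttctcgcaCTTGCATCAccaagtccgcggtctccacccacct
Fgf21: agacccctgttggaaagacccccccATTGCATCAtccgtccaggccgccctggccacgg

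A promoter window was held for 10558 of the 13122 genes, among them 240 of those called higher with TG and 177 of those called lower. The ERSE was in 2.92% of the promoters of genes called higher (95% Wilson interval 1.42 to 5.90%) and in 0.142% of all tested promoters, so that 7 of the 15 promoters that hold it, with 6 separate sites, belong to genes that rose. It was found in 0 of 177 promoters of genes called lower. The ERSE-II was in 1.67% of the promoters of genes called higher against 0.0663% of all, and the XBP1 element UPRE (TGACGTGG) in 3.75% against 0.947%. The AARE was in 7.92% of the promoters of genes called higher (5.13 to 12.0%), in 3.39% of those of genes called lower and in 3.0% of all. A match is a description of the letters in a window and not a site of binding, and the intervals cover counting error only.

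TG changed the RNA of a small share of the genes measured, with more large increases than large decreases. Of 13122 genes, 282 were higher in TG cells (2.15% of all tested) and 231 were lower (1.76%), by limma at an adjusted p (Benjamini-Hochberg) under 0.05 and a change of at least 2-fold. The called genes, which by the threshold changed at least 2-fold, had a median log2 fold change of 1.41 upwards and -1.32 downwards, with a median SE of 0.26. At least 4-fold changes were fitted for 56 of the genes that rose and 29 of those that fell, and at least 8-fold changes for 16 and 5. The intensities of the TG pair lay wholly outside those of the untreated pair for 513 of the 513 called genes and for 52.1% of all genes, so the absence of overlap alone selects little in this design. Of the called genes, 252 had more than 1 probe above background, and in 62 of these all such probes were called the same way while in 33 at least 1 probe had the opposite sign.

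The counts depended on which arrays were present. Without untreated replicate 2 the genes called were 173 higher and 144 lower, without TG replicate 1 they were 170 and 109, and without TG replicate 2 the genes called lower were 134; without untreated replicate 1 they were 299 and 218. No gene called in the comparison was called with the opposite sign in any setting that was run.

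**Figure D1:**
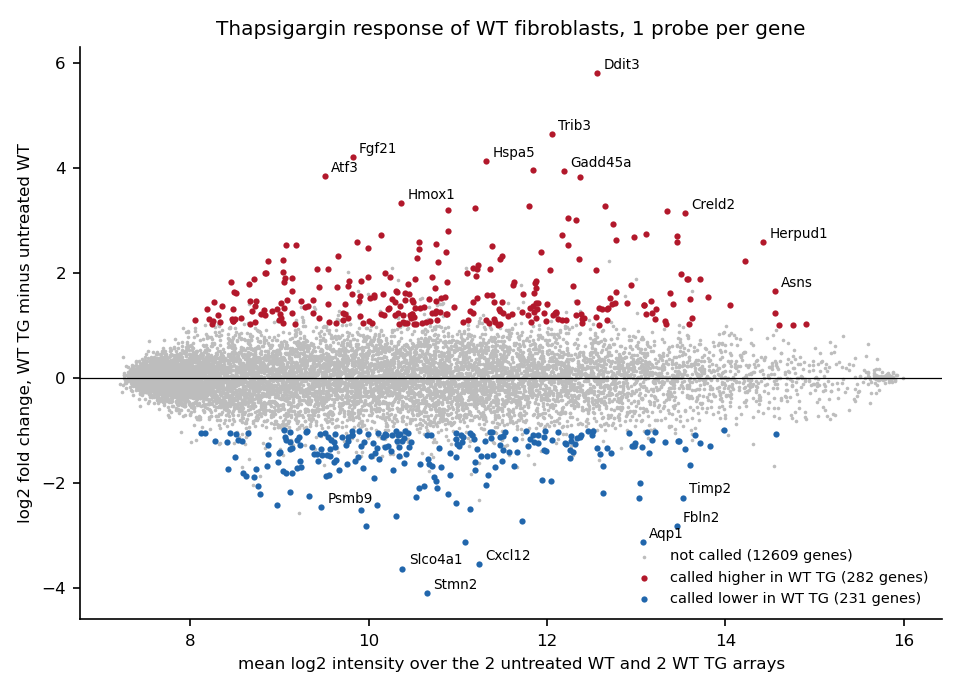
Each point is 1 of the 13122 genes, with the mean log2 intensity of the untreated and TG arrays on the x axis and the log2 fold change of TG over untreated WT cells on the y axis. The genes called are coloured, 282 higher and 231 lower, and the changes upwards reach further than those downwards.

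The transcription factors of the ER stress response were among the genes that rose most: 9 of 20 measured were higher and 0 lower, with a median log2 fold change of 0.94 against 0.00 for all genes. Ddit3, which encodes the pro-apoptotic factor CHOP, had intensities of 1296 and 508 on the untreated arrays and 45136.5 and 45357.5 on the TG arrays. Its 55.8-fold rise (log2 fold change 5.80, SE 0.40, adjusted p = 7.95e-07) was the largest fitted for any gene, and its TG arrays were near-equal while the untreated pair differed by more than 2-fold. Trib3, a pseudokinase that is induced by ATF4 and CHOP and restrains them, had intensities of 1070.4 and 676 on the untreated arrays and 24047 and 18717 on the TG arrays (log2 fold change 4.64, SE 0.28, adjusted p = 2.06e-07). Atf3, a stress factor downstream of ATF4, was below the background on both untreated arrays (196 and 190.1) and at 2743 and 2787 with TG, which is at least 11.8-fold higher (adjusted p = 2.29e-09). Nupr1, a small chromatin protein of the stress response, rose from 8683 and 9067 to 41032 and 41378 (log2 fold change 2.22, SE 0.40, adjusted p = 0.003). Atf4 itself, already bright in untreated cells, had intensities of 17945 and 13655 on the untreated arrays and 38482 and 35486 on the TG arrays, a 2.36-fold rise (adjusted p = 0.000148). The other members called were Cebpb (1.88 log2), which pairs with CHOP, Atf5 (1.40), Cebpg (1.15), a partner of ATF4, and Nfe2l1 (1.03), which governs proteasome genes. Without 1 array at a time, between 6 and 10 members were called, the fewest without untreated replicate 2. Cebpb (adjusted p = 0.0728) lost the call without untreated replicate 2. Nfe2l1 (adjusted p between 0.0577 and 0.0626) lost the call without untreated replicate 2 or TG replicate 1. Cebpg (adjusted p between 0.0687 and 0.0809) lost the call without untreated replicate 2 or TG replicate 2. Another probe of Cebpg (0.11) gave the smaller or opposite log2 fold change in parentheses.

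Of 16 sensors of ER stress and their regulators, 3 rose and 0 fell (median 0.23), and none of the 3 was a sensor. Ppp1r15a encodes GADD34, which directs the phosphatase that reverses eIF2α phosphorylation, and had intensities of 1338 and 977 on the untreated arrays and 11249 and 10876 on the TG arrays (log2 fold change 3.27, SE 0.32, adjusted p = 1.76e-05). Dnajc3, the luminal co-chaperone p58IPK, which also inhibits PERK, rose from 1435 and 1165 to 6696 and 6181 (log2 fold change 2.32, SE 0.24, adjusted p = 2.64e-05). Total Xbp1 mRNA, of which the array does not separate the spliced form, went from 6686 and 6078 to 25625.5 and 21594 (log2 fold change 1.88, SE 0.26, adjusted p = 0.000436). The sensor genes did not pass the test. Ern1 had intensities of 828 and 521 on the untreated arrays and 1108 and 999 on the TG arrays (log2 fold change 0.68, adjusted p = 0.0503), Atf6 had a log2 fold change of 0.77 (adjusted p = 0.0565), and Eif2ak3 was at 192 and 224 on the untreated arrays and 221 and 241 on the TG arrays (log2 fold change 0.16, adjusted p = 0.618). Without untreated replicate 1 the log2 fold change of Ern1 was 1.01. Its other probes above background gave changes of the opposite sign (-0.21 and -0.12). Atf6 (182 and 204) and Eif2ak3 lay below the background on both untreated arrays. The change of Atf6 is therefore a bound of 1.40-fold, and Eif2ak3 stayed near the background with TG.

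Of 30 ER chaperones and folding enzymes, 11 rose and 0 fell (median 0.75). Hspa5, which encodes the chaperone BiP and carries the ERSE shown above, had intensities of 686 and 547 on the untreated arrays and 11673 and 9685 on the TG arrays, a 17.4-fold rise (log2 fold change 4.12, SE 0.24, adjusted p = 1.37e-07). Sdf2l1, a BiP-associated protein of the ER lumen, went from 1085 and 799 to 13427 and 15497 (log2 fold change 3.95, SE 0.29, adjusted p = 1.01e-06), and Creld2, a secreted ER resident, from 4297 and 3830.5 to 33335 and 37848 (log2 fold change 3.13, SE 0.25, adjusted p = 2.32e-06). These were the 3 chaperone-class genes with the largest changes. Dnajb9, a BiP co-chaperone that feeds back on IRE1, rose from 1744 and 1616.5 to 14479.8 and 13045 (log2 fold change 3.03, SE 0.24, adjusted p = 2.44e-06), and the disulphide isomerase gene Pdia4 from 3676 and 3207 to 23689 and 21944 (log2 fold change 2.73, SE 0.49, adjusted p = 0.00293). The others that rose were Hyou1 (2.29 log2), the exchange factor of BiP, Ero1b (2.24), an oxidase of disulphide isomerases, Pdia6 (2.07), Fkbp2 (1.63), Manf (1.19) and Pdia3 (1.02). The calcium-binding chaperone genes Calr and Hsp90b1 were not called. Calr, calreticulin, had intensities of 2983 and 6100.1 on the untreated arrays and 12408 and 20053 on the TG arrays (log2 fold change 1.89, SE 1.03, adjusted p = 0.39), and passed with the replicate number as a block (adjusted p = 0.00992). Hsp90b1, GRP94, was at 34559 and 27857 on the untreated arrays and 54629.5 and 52634 on the TG arrays, a change under 2-fold (log2 0.79, adjusted p = 0.0271). With 1 array left out, between 8 and 11 members were called. Manf (adjusted p = 0.0558) lost the call without TG replicate 1. Pdia6 (adjusted p between 0.0615 and 0.118) lost the call without untreated replicate 2, TG replicate 1 or TG replicate 2. Pdia3 (adjusted p between 0.0543 and 0.175) lost the call whichever of the 4 arrays was left out.

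ERAD, which returns misfolded proteins to the cytosol for degradation, had 5 of 24 genes higher and 0 lower (median 0.52). They are parts of 1 machinery: Syvn1 encodes the ligase HRD1 and Sel1l its partner, Herpud1 a regulator of the complex, and Selenos and Selenok the selenoproteins that recruit the extraction ATPase. Syvn1 had intensities of 5197 and 3741 on the untreated arrays and 30915 and 26335 on the TG arrays (log2 fold change 2.69, SE 0.20, adjusted p = 1.42e-06), and Sel1l of 2365 and 1794 on the untreated arrays and 8779.7 and 8342 on the TG arrays (log2 fold change 2.05, SE 0.16, adjusted p = 2.32e-06). Selenos rose from 5531 and 3776 to 28166 and 26839.5 (log2 fold change 2.59, SE 0.19, adjusted p = 1.01e-06). Herpud1, with both an ERSE-II and an AARE in its promoter window, went from 7556 and 10624 to 55588.5 and 51876 (log2 fold change 2.58, SE 0.50, adjusted p = 0.00549), and its SE was larger than those of its partners. Herpud1 (adjusted p between 0.0505 and 0.0586) lost the call without untreated replicate 1 or TG replicate 1.

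Genes of entry into the ER, glycosylation and onward transport rose in part. Of 42 genes for translocation, signal cleavage and glycosylation, 8 rose and 0 fell (median 0.62). Alg12, a mannosyltransferase that builds the N-glycan precursor, had intensities of 1157 and 1059.9 on the untreated arrays and 4038 and 4757 on the TG arrays (log2 fold change 1.98, SE 0.22, adjusted p = 5.7e-05), and Gmppb, which makes GDP-mannose, of 664 and 587 on the untreated arrays and 2051 and 2709.6 on the TG arrays (log2 fold change 1.92, SE 0.22, adjusted p = 9.11e-05). The others were Sec11c (1.47 log2), of the signal peptidase, Stt3a (1.45), a catalytic subunit of the oligosaccharyltransferase, Gfpt1 (1.44), which opens the hexosamine pathway, Srp72 (1.13) and Srp9 (1.10), of the signal recognition particle, and Sec61a1 (1.10), the channel itself. Of 57 genes of transport between ER and Golgi, 9 rose and 1 fell (median 0.55). Those that rose include Stx5a (1.60), a Golgi SNARE, Kdelr3 (1.58), a receptor that retrieves ER residents, Mcfd2 (1.51), a cargo receptor subunit, Sec24d (1.46), of the COPII coat, and Surf4 (1.41), while Trappc1 was lower (-1.40). With 1 array left out, 5 to 8 genes of the first list and 5 to 9 of the second were called. Sec24d (adjusted p between 0.115 and 0.199) and Surf4 (adjusted p between 0.0751 and 0.0841) lost the call without untreated replicate 2 or TG replicate 1. Sec11c (adjusted p between 0.0583 and 0.11), Srp72 (adjusted p between 0.0566 and 0.116), Sec61a1 (adjusted p between 0.112 and 0.221) and Kdelr3 (adjusted p between 0.0774 and 0.199) lost the call without untreated replicate 2, TG replicate 1 or TG replicate 2. Sec61a1 (adjusted p = 0.054), Kdelr3 (adjusted p = 0.0518) and Sec24d (adjusted p = 0.0621) lost the call in the fit of the 4 arrays alone. Another probe of Gfpt1 (-0.09), Sec61a1 (0.16) and Sec24d (0.13) gave the smaller or opposite log2 fold change in parentheses.

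**Figure D2:**
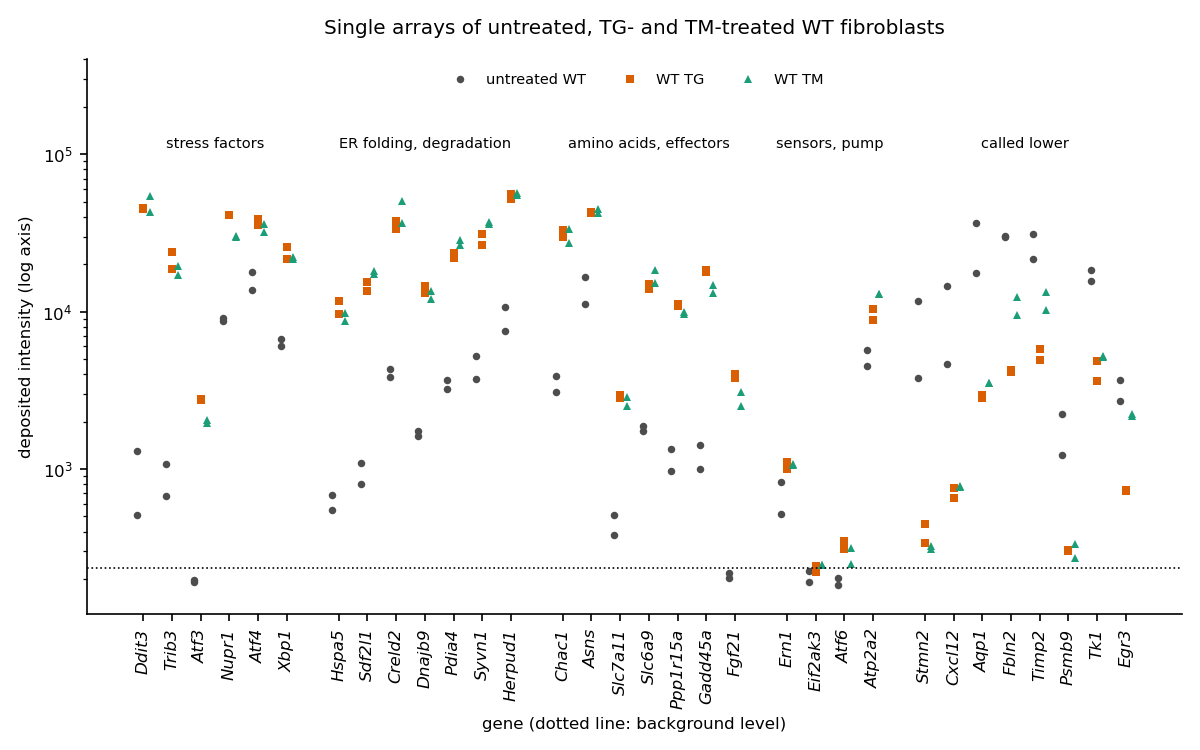
Signal intensity (log scale) of selected genes on each of the 2 untreated, 2 TG and 2 TM arrays of WT cells, each point 1 array. The TG points of Ddit3 lie at 45136.5 and 45357.5 against 1296 and 508 without treatment, and each called gene in the plot shows the same separation of its pairs.

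Of 29 effectors and hormones driven by ATF4 and CHOP, 17 rose and 1 fell (median 1.48). Fgf21, a stress hormone, was below the background on both untreated arrays (219 and 203) and at 3757 and 4004 with TG, at least 16.5-fold higher (adjusted p = 1.01e-06). Gadd45a, which acts in growth arrest, had intensities of 1001 and 1422 on the untreated arrays and 17896 and 18468 on the TG arrays (log2 fold change 3.93, SE 0.75, adjusted p = 0.00476). Chac1, which breaks down glutathione, went from 3903 and 3069 to 33069 and 29755 (log2 fold change 3.18, SE 0.28, adjusted p = 6.81e-06), and Hmox1, heme oxygenase, from 658 and 264 to 3679.9 and 4722 (log2 fold change 3.32, SE 0.59, adjusted p = 0.0028). The untreated and TG pairs lay far apart for all 4, although the untreated pair of Hmox1 itself differed by more than 2-fold. Ndrg1 (2.58 log2), Slc3a2 (2.58), a subunit of amino acid exchangers, Ddit4 (2.09), an inhibitor of mTORC1, Gpt2 (2.06), Stc2 (1.91) and Sesn2 (1.48) rose too. Of 33 genes of the BCL2 family and death receptors, 1 rose and 1 fell (median -0.04), near the shares of all genes. Bbc3, which encodes PUMA, had intensities of 695 and 869 on the untreated arrays and 2462 and 2276 on the TG arrays (log2 fold change 1.61, SE 0.31, adjusted p = 0.00468), while Bcl2l11, which encodes BIM and is listed as a CHOP target, had 1117 and 2100.3 on the untreated arrays and 455 and 525 on the TG arrays (log2 fold change -1.65, SE 0.38, adjusted p = 0.0153). Without 1 array, between 9 and 13 list members were called higher, the fewest without untreated replicate 2. Hmox1 (adjusted p = 0.0525) and Stc2 (adjusted p = 0.062) lost the call without untreated replicate 2. Bbc3 (adjusted p = 0.0558) lost the call without TG replicate 1. Bcl2l11 (adjusted p between 0.0771 and 0.191) lost the call without untreated replicate 2, TG replicate 1 or TG replicate 2. Sesn2 (adjusted p between 0.0537 and 0.0997) lost the call whichever of the 4 arrays was left out. Bcl2l11 (adjusted p = 0.059) lost the call in the fit of the 4 arrays alone. Another probe of Bbc3 (0.25) and Bcl2l11 (-0.26) gave the smaller or opposite log2 fold change in parentheses.

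Genes of amino acid supply rose in part. Of 18 genes of amino acid and one-carbon synthesis, 7 rose and 0 fell (median 0.54), and 1 fell with the replicate number as a block. Aldh1l2, a mitochondrial folate enzyme, had intensities of 1039 and 565 on the untreated arrays and 7481.5 and 6822 on the TG arrays (log2 fold change 3.22, SE 0.29, adjusted p = 6.81e-06). Asns, asparagine synthetase, was already bright at 16542 and 11129 and reached 42205 and 42762 (log2 fold change 1.65, SE 0.20, adjusted p = 0.000158). Aldh18a1 (1.42 log2), of proline synthesis, Mthfd2 (1.38) and Shmt2 (1.19), of the mitochondrial folate cycle, and Bcat1 (1.13) and Bcat2 (1.27), of branched-chain amino acid turnover, completed the set. Of 21 amino acid transporters, 3 rose and the median was -0.04, so the list as a whole lay at the level of all genes. The glycine transporter Slc6a9 went from 1878 and 1747 to 14962 and 13985 (log2 fold change 3.0, SE 0.29, adjusted p = 1.55e-05), the cystine exchanger Slc7a11 from 509 and 381 to 2811 and 2956 (log2 fold change 2.71, SE 0.20, adjusted p = 1.01e-06), and Slc1a4 from 1967 and 1703 to 4126 and 4767 (log2 fold change 1.28, SE 0.33, adjusted p = 0.0308). Of 22 aminoacyl-tRNA synthetases, 3 rose, Wars (1.75), Tars (1.22) and Sars (1.20), with a median of 0.49, and between 1 and 4 were called with 1 array left out. Bcat2 (adjusted p between 0.065 and 0.0699) lost the call without untreated replicate 1 or TG replicate 1. Bcat1 (adjusted p between 0.0931 and 0.1) and Wars (adjusted p between 0.0713 and 0.0836) lost the call without untreated replicate 2 or TG replicate 1. Shmt2 (adjusted p between 0.0644 and 0.116) and Sars (adjusted p between 0.0507 and 0.15) lost the call without untreated replicate 2, TG replicate 1 or TG replicate 2. Slc1a4 (adjusted p between 0.0828 and 0.202) lost the call whichever of the 4 arrays was left out. Mthfd2 (adjusted p = 0.0538), Shmt2 (adjusted p = 0.0539), Bcat1 (adjusted p = 0.0503) and Tars (adjusted p = 0.052) lost the call in the fit of the 4 arrays alone. Another probe of Aldh1l2 (0.01), Aldh18a1 (0.10) and Slc7a11 (0.26) gave the smaller or opposite log2 fold change in parentheses.

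The target of TG, the SERCA pump of these cells, was not called. Atp2a2, which encodes it, had intensities of 5674 and 4514 on the untreated arrays and 10453 and 8894 on the TG arrays (log2 fold change 0.93, SE 0.27, adjusted p = 0.0527). Its other probes above background had log2 fold changes of 0.93 and 1.34. The same probe passed the thresholds of the limma fit with TM in WT cells (1.36, adjusted p = 0.00877) and with TG in KO cells (1.34, adjusted p = 0.00463). Of 27 calcium pumps, channels and buffers, 1 rose and 1 fell (median 0.11), near the shares of all genes, and 2 rose with the replicate number as a block. Itpr2, a channel that releases ER calcium, rose from 822.5 and 466 to 1945 and 1766 (log2 fold change 1.58, SE 0.20, adjusted p = 0.000156), and Stim2, a sensor of ER calcium that opens store-operated entry, fell from 857 and 822 to 352 and 281 (log2 fold change -1.42, SE 0.17, adjusted p = 0.000116). Itpr2 (adjusted p = 0.0531) lost the call in the fit of the 4 arrays alone. Another probe of Stim2 (-0.13) gave the smaller or opposite log2 fold change in parentheses.

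The Siah genes, whose products are the ubiquitin ligases that the study is about, included 1 that rose. Siah2 had intensities of 781 and 505 on the untreated arrays and 2014 and 1625 on the TG arrays, a 2.88-fold rise (log2 fold change 1.53, SE 0.29, adjusted p = 0.00486). Siah1a was at 1591 and 1269.7 on the untreated arrays and 1839 and 1728.5 on the TG arrays (log2 fold change 0.33, adjusted p = 0.323) and Siah1b at 2761 and 2053 on the untreated arrays and 2580.0 and 2573 on the TG arrays (log2 fold change 0.11, adjusted p = 0.929), and neither passed. In KO cells the probes read 285 and 275 for Siah1a and 351 and 239 for Siah2 without treatment, below both WT arrays in each case. With TG they read 241 and 237 for Siah1a and 656 and 515 for Siah2, and the Siah2 probe passed the thresholds as higher with TG in KO cells (log2 fold change 1.01, adjusted p = 0.0412). Whether the probes lie in the deleted parts is not given, so the values do not check the label. Siah2 (adjusted p between 0.0734 and 0.0813) lost the call without untreated replicate 2 or TG replicate 1. Among 18 genes for Siah ligases, their substrates and oxygen sensors, Siah2 was the only one called, and the prolyl hydroxylase genes Egln1 (-0.62), Egln2 (-0.13) and Egln3 (0.28), and Hif1a (0.15), the factor they control, were not (adjusted p between 0.363 and 0.967). Of 37 HIF1 targets and glycolysis genes, 1 rose, Ndrg1 (2.58), and 2 fell, the phosphofructokinase genes Pfkl (-1.38) and Pfkm (-1.16). These are 2.70% and 5.41% of the list, against 2.15% and 1.76% of all genes tested. Pfkl (adjusted p between 0.0848 and 0.175) and Pfkm (adjusted p between 0.0957 and 0.128) lost the call without untreated replicate 2, TG replicate 1 or TG replicate 2. Pfkl (adjusted p = 0.054) lost the call in the fit of the 4 arrays alone. Another probe of Pfkl (-0.27) and Pfkm (-0.16) gave the smaller or opposite log2 fold change in parentheses.

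Several groups showed no called gene: 39 ribosomal proteins (median 0.02), 33 translation initiation factors (0.10), 46 of the respiratory chain (-0.02), 28 of the proteasome and ubiquitin (-0.05), 19 collagens (0.04), 19 targets of p53 (0.15) and 15 genes of calcineurin, NFAT and NR4A (-0.21), a pathway that cytosolic calcium activates. Of all genes tested, 2.15% were called higher and 1.76% lower. At those shares, lists of this size would hold few calls or none. With the replicate number as a block 2 collagens were lower and 1 target of p53 was higher, and without untreated replicate 1 a respiratory chain gene was lower. In all, 12 of 45 lists, those of markers included, had no called member. Of 29 cytosolic and mitochondrial heat shock genes, 1 rose, Dnaja3 (1.07), against 11 of 30 for the chaperones of the ER. Of 32 genes of sterol and fatty acid synthesis, 3 rose, Stard5 (log2 fold change 2.50, SE 0.12, adjusted p = 1.53e-08), a sterol carrier, Mvd (1.59) and Insig1 (1.03), and of 38 genes of glutathione, thioredoxin and NRF2 Hmox1, Slc7a11 and Txnip (1.77). Mvd (adjusted p between 0.111 and 0.283) lost the call without untreated replicate 1, TG replicate 1 or TG replicate 2. Insig1 (adjusted p between 0.0579 and 0.197) lost the call whichever of the 4 arrays was left out. Mvd (adjusted p = 0.131) and Insig1 (adjusted p = 0.0505) lost the call in the fit of the 4 arrays alone. Another probe of Dnaja3 (0.06) gave the smaller or opposite log2 fold change in parentheses. Of 14 genes whose mRNA IRE1 is reported to cleave, 1 fell, Hgsnat (log2 fold change -1.85, SE 0.32, adjusted p = 0.00225), and 1 rose, Pdia4, and with the replicate number as a block 2 fell.

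**Figure D3:**
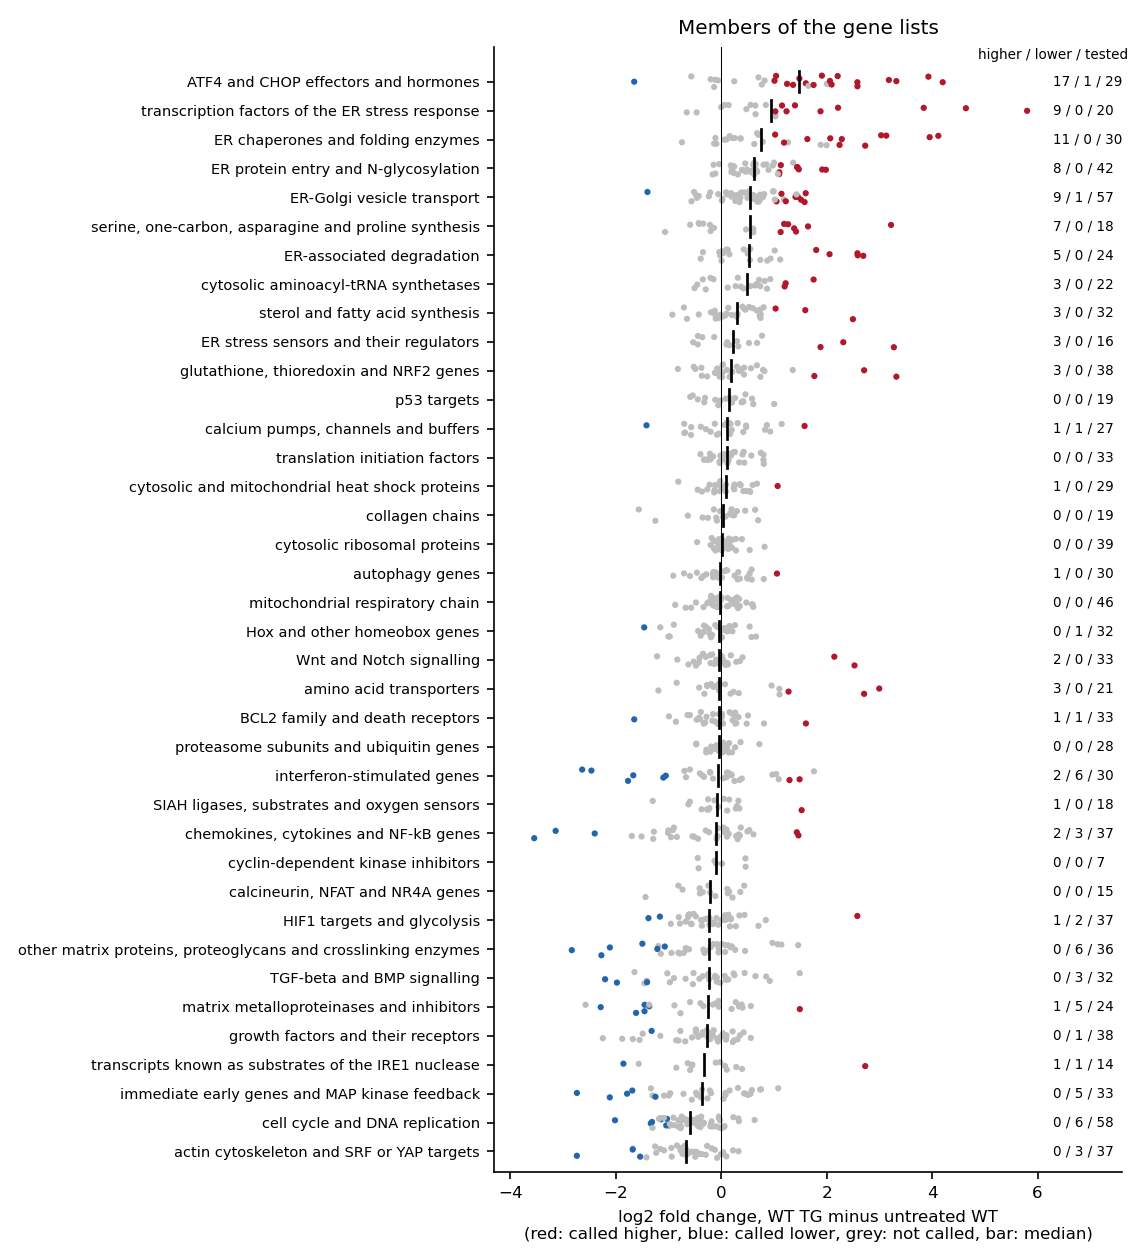
Log2 fold change (TG over untreated WT cells) of every measured member of the gene lists, each point 1 gene, with called genes coloured and the median of each list marked. ATF4 and CHOP targets have a median of 1.48 and ribosomal proteins of 0.02.

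The largest decreases included genes for chemokines and membrane transporters. Stmn2, a neuronal tubulin-binding protein, had intensities of 3804 and 11703 on the untreated arrays and 338 and 446 on the TG arrays, the largest fitted decrease (log2 fold change -4.10, SE 0.67, adjusted p = 0.00167). The chemokine genes Cxcl12 and Cx3cl1 went from 14606 and 4621 to 652 and 760.0 (log2 fold change -3.54, SE 0.66, adjusted p = 0.00388) and from 3807 and 10867 to 695 and 768 (log2 fold change -3.14, SE 0.58, adjusted p = 0.00386), and were the only chemokines among the 3 genes that fell of 37 for chemokines, cytokines and NF-κB. The third was Nfkbia, the NF-κB inhibitor, from 3788 and 5706 to 972 and 800.5 (log2 fold change -2.40, SE 0.33, adjusted p = 0.000447), while Il33 (1.46) and Tnfaip2 (1.43) rose. Also lower were the organic anion transporter Slco4a1 (from 2405 and 9169 to 364 and 391, log2 fold change -3.64, SE 0.68, adjusted p = 0.00412), the water channel Aqp1 (from 17649 and 36749 to 2969 and 2843, log2 fold change -3.13, SE 0.49, adjusted p = 0.00108) and the oxysterol hydroxylase Cyp7b1 (from 1702 and 4223 to 399.6 and 353, log2 fold change -2.84, SE 0.53, adjusted p = 0.00389). Further genes in the 20 largest decreases were Pmepa1 (-2.51), S100a7a (-2.50), Evc (-2.42), Gpr149 (-2.30), Sdc3 (-2.26) and Endod1 (-2.21). Cxcl12 (adjusted p = 0.0534) lost the call without untreated replicate 1. Cx3cl1 (adjusted p = 0.0719), Slco4a1 (adjusted p = 0.0749), Cyp7b1 (adjusted p = 0.072) and Gpr149 (adjusted p = 0.0581) lost the call without untreated replicate 2. Il33 (adjusted p between 0.106 and 0.152), Tnfaip2 (adjusted p between 0.0571 and 0.0829) and Endod1 (adjusted p between 0.0797 and 0.192) lost the call without untreated replicate 2, TG replicate 1 or TG replicate 2. Endod1 (adjusted p = 0.0827) lost the call in the fit of the 4 arrays alone. Another probe of Slco4a1 (-0.00369) and Sdc3 (-0.06) gave the smaller or opposite log2 fold change in parentheses.

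Genes of the extracellular matrix fell in part. Of 36 matrix genes other than collagens, 6 fell and 0 rose (median -0.23). Fbln2, fibulin-2, had intensities of 30117.5 and 29697 on the untreated arrays and 4255 and 4143 on the TG arrays (log2 fold change -2.83, SE 0.23, adjusted p = 3.08e-06), and the proteoglycan decorin, Dcn, of 4916 and 2675 on the untreated arrays and 721 and 978 on the TG arrays (log2 fold change -2.11, SE 0.30, adjusted p = 0.000502). Nid1, nidogen of basement membranes (-2.27), Mfap2 (-1.49) and the crosslinking enzymes Loxl1 (-1.07) and Loxl3 (at least 2.02-fold lower) were the others. Of 24 matrix proteases and their inhibitors, 5 fell and 1 rose (median -0.25), and both kinds were among those that fell. The inhibitor Timp2 went from 21439 and 31317 to 4891 and 5785 (log2 fold change -2.28, SE 0.31, adjusted p = 0.000336) and Timp3 from 5312 and 3153 to 1438 and 1244 (log2 fold change -1.61, SE 0.26, adjusted p = 0.0016), beside the proteases Mmp14 (-1.45), Mmp2 (-1.36) and Adam12 (-1.45). Plat, tissue plasminogen activator, was the one that rose (1.49). Loxl3 (adjusted p = 0.0574) lost the call without TG replicate 1. Mmp14 (adjusted p = 0.0562) and Adam12 (adjusted p = 0.0812) lost the call without TG replicate 2. Nid1 (adjusted p between 0.167 and 0.308) lost the call without untreated replicate 1, TG replicate 1 or TG replicate 2. Plat (adjusted p between 0.0527 and 0.075) lost the call without untreated replicate 2, TG replicate 1 or TG replicate 2. Loxl1 (adjusted p between 0.0734 and 0.147) lost the call whichever of the 4 arrays was left out. Nid1 (adjusted p = 0.0791) lost the call in the fit of the 4 arrays alone. Another probe of Fbln2 (-0.14), Loxl1 (-0.10), Timp3 (0.03) and Plat (-0.09) gave the smaller or opposite log2 fold change in parentheses.

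Genes of proliferation and of the immediate early response fell in part. Of 58 cell cycle genes, 6 fell and 0 rose, and the median was -0.59, with a positive fold change for 6 of 58. Tk1, thymidine kinase, had intensities of 18491 and 15608 on the untreated arrays and 3635 and 4872 on the TG arrays (log2 fold change -2.01, SE 0.33, adjusted p = 0.00172); Ccnd3 (-1.33), cyclin D3, Rrm1 (-1.31), of ribonucleotide reductase, E2f1 (-1.14), Cdk1 (-1.04) and Mcm2 (-1.03), of the replicative helicase, were the other 5. The number called ranged from 2 to 7 with 1 array left out, the fewest without TG replicate 1, and was 10 with the replicate number as a block. Of 33 immediate early and MAP kinase feedback genes, 5 fell and 0 rose (median -0.36), against 8 and 1 with the replicate block and 2 to 4 that fell with 1 array left out. Ccn1, a matricellular protein, went from 17041.5 and 4413 to 1247 and 1358 (log2 fold change -2.74, SE 0.68, adjusted p = 0.0238) and the transcription factor Egr3 from 2693 and 3685 to 721 and 737 (log2 fold change -2.11, SE 0.40, adjusted p = 0.00486), beside Dusp10 (-1.78), Errfi1 (-1.69) and Srf (-1.25). Of 37 genes of the actin cytoskeleton and targets of SRF or YAP, 3 fell, Ccn1, Itga5 (-1.68) and Tpm2 (-1.54), with a median of -0.66, and 0 were called without untreated replicate 1 or without TG replicate 1 but 5 with the replicate block. Of 32 genes of TGF-β and BMP signalling, Inhba (-2.20), Id2 (-1.98) and Tgfbr3 (-1.40) fell, and 6 did with the replicate block. E2f1 (adjusted p = 0.055) lost the call without TG replicate 1. Ccnd3 (adjusted p between 0.0601 and 0.0624) and Itga5 (adjusted p between 0.0673 and 0.0706) lost the call without untreated replicate 1 or TG replicate 1. Cdk1 (adjusted p between 0.0601 and 0.0942) and Egr3 (adjusted p between 0.0515 and 0.0644) lost the call without untreated replicate 2 or TG replicate 1. Srf (adjusted p between 0.0734 and 0.128), Ccn1 (adjusted p between 0.122 and 0.24) and Tpm2 (adjusted p between 0.0835 and 0.18) lost the call without untreated replicate 1, TG replicate 1 or TG replicate 2. Mcm2 (adjusted p between 0.0934 and 0.226) lost the call whichever of the 4 arrays was left out. Cdk1 (adjusted p = 0.0611), Srf (adjusted p = 0.0671), Ccn1 (adjusted p = 0.0808) and Tpm2 (adjusted p = 0.0832) lost the call in the fit of the 4 arrays alone. Another probe of Tk1 (-0.24), Ccnd3 (-0.22), Cdk1 (-0.15), Egr3 (0.09) and Tpm2 (-0.19) gave the smaller or opposite log2 fold change in parentheses.

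Antigen presentation genes made up 5 of the 6 interferon-stimulated genes that fell. Of 30 interferon-stimulated genes, 6 fell and 2 rose (median -0.06). The immunoproteasome subunits Psmb8 and Psmb9 went from 2028 and 4939.5 to 511 and 508 (log2 fold change -2.64, SE 0.45, adjusted p = 0.00224) and from 1234 and 2235 to 305 and 299 (log2 fold change -2.46, SE 0.39, adjusted p = 0.00116). The class I heavy chains H2-K1 (-1.77) and H2-D1 (-1.67) and the peptide transporter subunit Tap1 (-1.05) fell as well, with Parp14 (-1.10), whereas Mx2 (1.49) and Isg20 (1.3), antiviral effectors, rose. H2-K1 and H2-D1 belong to a family of closely similar genes that probes may not separate, so their values are uncertain. Between 2 and 4 of the list's genes were called lower with 1 array left out. Tap1 (adjusted p between 0.0633 and 0.0919) lost the call without untreated replicate 1 or TG replicate 2. H2-K1 (adjusted p between 0.0663 and 0.182), H2-D1 (adjusted p between 0.152 and 0.327), Mx2 (adjusted p between 0.102 and 0.215) and Isg20 (adjusted p between 0.0599 and 0.0826) lost the call without untreated replicate 2, TG replicate 1 or TG replicate 2. Parp14 (adjusted p between 0.0883 and 0.203) lost the call whichever of the 4 arrays was left out. H2-K1 (adjusted p = 0.055), H2-D1 (adjusted p = 0.0885) and Mx2 (adjusted p = 0.123) lost the call in the fit of the 4 arrays alone. Another probe of H2-K1 (-0.06) and H2-D1 (0.06) gave the smaller or opposite log2 fold change in parentheses.

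For 16 of the genes that rose, both untreated arrays lay below the background, and for 8 of those that fell both TG arrays did, so these changes are lower bounds against the background level. The brightest of the first kind after Fgf21 and Atf3 were Cox6a2 (at least 5.54-fold), Hid1 (at least 4.31-fold), Sfxn4 (at least 3.41-fold), Arhgap20 (at least 3.19-fold), Avil (at least 2.80-fold) and Dnmt3l (at least 2.70-fold). Those of the second kind included the proliferin genes Prl2c2 (at least 4.95-fold lower), Prl2c3 (4.05) and Prl2c4 (3.09), placental prolactin-like hormones whose near-identical copies a probe may not separate, the metalloprotease gene Adamts7 (3.45) and the transporter gene Slc16a6 (2.66). Prl2c2 (adjusted p between 0.0554 and 0.0613) lost the call without untreated replicate 1 or TG replicate 1. Prl2c3 (adjusted p between 0.0561 and 0.0665) lost the call without untreated replicate 1 or TG replicate 2. Prl2c4 (adjusted p between 0.0886 and 0.116) and Notum (adjusted p between 0.0947 and 0.267) lost the call without untreated replicate 1, TG replicate 1 or TG replicate 2. Notum (adjusted p = 0.1) lost the call in the fit of the 4 arrays alone. Another probe of Arhgap20 (0.29) and Notum (-0.23) gave the smaller or opposite log2 fold change in parentheses.

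Among the 20 largest increases were also genes outside the ER stress lists. The growth factor gene Artn, artemin, had intensities of 497 and 791 on the untreated arrays and 5928 and 5526 on the TG arrays (log2 fold change 3.19, SE 0.45, adjusted p = 0.000543), and the metalloreductase gene Steap1 of 1260.3 and 413 on the untreated arrays and 4747 and 5309.8 on the TG arrays (log2 fold change 2.80, SE 0.59, adjusted p = 0.00918). The snoRNA host transcripts Snhg12, from 3155 and 1360.2 to 19171 and 20626 (log2 fold change 3.26, SE 0.35, adjusted p = 4.72e-05), and Snhg16, from 3093 and 1976 to 20017 and 17848 (log2 fold change 2.93, SE 0.29, adjusted p = 1.94e-05), carry small nucleolar RNAs in their introns. A transcript known only by its clone name, 2410006H16Rik, rose from 1982 and 1003 to 23131.5 and 17229 (log2 fold change 3.82, SE 0.46, adjusted p = 0.000115). Steap1 (adjusted p between 0.0678 and 0.14) lost the call without untreated replicate 2, TG replicate 1 or TG replicate 2. Steap1 (adjusted p = 0.0539) lost the call in the fit of the 4 arrays alone.

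Levels of the leading genes in the other WT conditions of the series, where OGD stands for combined oxygen and glucose deprivation, are given without a test. Ddit3 was at 1595 and 4076 with glucose deprivation, 1230.2 and 1039.6 with oxygen deprivation, 16639.9 and 11448 with OGD and 54629.5 and 43042 with TM, so the TM arrays bracketed the TG pair and both OGD arrays lay between it and the untreated pair. Hspa5 was at 1534 and 2628 with OGD and 9854 and 8731 with TM, where the TM and TG pairs overlapped, and at 598 and 760.0 with glucose and 665 and 477 with oxygen deprivation, which overlapped the untreated pair. Trib3 was at 9113 and 9760.0 with OGD and 19551.5 and 17018 with TM. Egln1 showed another pattern, at 1459.9 and 1675 with oxygen deprivation and 1559.9 and 1861 with OGD against 507 and 578 untreated and 404 and 307 with TG. The deprivations lasted 12 h and the drugs 6 h, so these values stand side by side with no comparison of strength.

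TM was compared with TG to ask which of these changes differ between the 2 drugs. The genes called higher with TG had a median log2 fold change of 1.41 with TG and 1.23 with TM, and those called lower -1.32 and -1.10, where both comparisons share the untreated arrays. These genes were chosen by their change with TG, which favours large TG values, so the smaller TM medians give no comparison of the drugs. Setting the TG arrays directly against the TM arrays, by the array names on the same BeadChips, 0 genes were called in either direction in the fit over all groups (lowest adjusted p = 0.0680, 427 genes at an unadjusted p under 0.05). Of the 513 genes called with TG, 497 lay within 2-fold of their TM level. Among all genes tested, 36 were higher and 8 lower by at least 2-fold at an unadjusted p of at most 0.05. The share of all genes within 2-fold was not computed, so the 497 say nothing particular of the called genes. With the replicate number as a block 6 genes were higher and 2 lower, and in the fit of these 4 arrays alone 36 were higher with TG (0.274% of all tested) and 10 lower (0.0762%), so which genes differ rests on how the spread is estimated. The genes named next are those of the 4-array fit, in which only 2 degrees of freedom lie within the groups.

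Of the 36 genes higher with TG than with TM, 10 belong to the list of 30 interferon-stimulated genes. Usp18, which removes the ubiquitin-like ISG15, had intensities of 6919.5 and 7043 with TG and 1151 and 1075 with TM (log2 difference 2.65, SE 0.12, adjusted p = 5.2e-05 in that fit and 1 over all groups), while the untreated arrays lay at 6029.6 and 2104, apart by more than 2-fold. Ifit3, an antiviral effector, was at 5197 and 4444 with TG, 1219 and 941 with TM and 3183 and 1712 untreated (log2 difference 2.17, SE 0.16, adjusted p = 0.000712 in that fit and 0.232 over all groups). Isg15 was at 6024 and 6268, 1703 and 1512 and 2911 and 1133 in the same order, so for Usp18 and Ifit3 the TM pair lay below both untreated arrays and the TG pair above or at the higher of them. Mx2 (1.92), Oasl1 (1.89), the chemokine Ccl7 (1.87), Apol9a (1.75) and Rsad2 (1.68) completed the 8 largest differences. Replication-dependent histone H2B genes were a second group, chosen after their values were seen: 7 of 13 tested were higher with TG than with TM, led by H2bc4 at 7887 and 8454 with TG, 2969 and 2731 with TM and 3492 and 3331 untreated (log2 difference 1.52, SE 0.13, adjusted p = 0.00103 in that fit and 0.578 over all groups), and near-identical copies of these genes may share probes. Lower with TG than with TM were Egr3, at 721 and 737 with TG, 2219 and 2160.0 with TM and 2693 and 3685 untreated (log2 difference -1.59, SE 0.12, adjusted p = 0.000735 in that fit and 0.477 over all groups), and Egr1 (12187 and 12051.5, 27566 and 28580.3 and 18231 and 17421, log2 difference -1.21), another immediate early factor. Fbln2 (-1.37), Timp2 (-1.13), Timp3 (-1.01) and Col3a1 (-1.08) of the matrix were lower too. The others of the 10 lower genes were Nrep (-1.40), Adgre5 (-1.10), Gstm1 (-1.06) and Grn (-1.03).

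**Figure D4:**
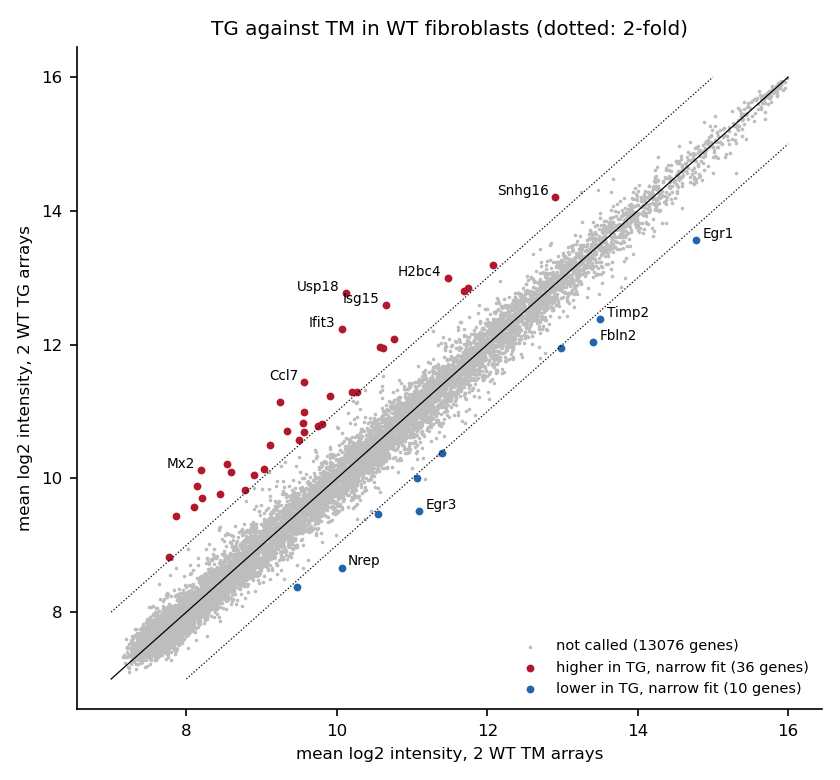
Mean log2 intensity over the 2 TM arrays (x axis) and over the 2 TG arrays (y axis) of WT cells, each point 1 gene. Dotted lines mark a 2-fold difference. Genes that differ between TG and TM in the 4-array fit, 36 higher and 10 lower with TG, are coloured and some of them named.

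The response of KO cells was set against the WT response to ask which genes respond differently. The number of fibroblast lines per genotype is not given, so the loss of Siah1a and Siah2 cannot be told apart from a difference between cell lines. TG against untreated KO cells called 404 genes higher (3.08% of all tested) and 314 lower (2.39%), from arrays that the WT comparison does not use. By the array names they are split over the same BeadChips. Of the 282 genes that rose in WT cells 188 also rose in KO cells, which is 188 of the 404 there, and of the 231 that fell 90 also fell, of 314. A fold change of the same sign was found in KO cells for 275 of the 282 and 199 of the 231, and the median log2 fold changes there were 1.34 and -0.86. These genes were chosen by their change in WT cells, so the smaller KO medians give no comparison of the genotypes. The response difference itself (KO minus WT, in which an additive effect of chips so placed would cancel) was called for 38 genes with a larger and 27 with a smaller value in KO cells, 0.29% and 0.206% of all tested, and for 93 and 63 with the replicate number as a block. In the fit of the 8 arrays alone it was called for 3 and 4. Of these 65 genes, 11 were among those that rose in WT cells, 9 among those that fell and 45 among neither, and 17 were called without each of the 8 arrays in turn. Of 276 genes in the 10 lists of ER stress, secretion and amino acid supply, 74 rose and 2 fell in WT cells, and 1, Gpt2, had a response difference that was called, which was kept in 1 of the 8 fits without an array (adjusted p up to 0.124) and not in the fit of the 8 arrays alone (adjusted p = 0.068).

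Some genes that TG raised in WT cells were not raised, or were lowered, in KO cells. Ramp3, a partner of calcitonin-family receptors, went from 669 and 279 to 2275 and 2524 in WT and from 3336 and 2744 to 449 and 450.1 in KO cells (difference -5.22 on the log2 scale, SE 0.61, adjusted p = 0.00184), so that the directions were opposite and neither pair overlapped. Hid1, of dense-core granule trafficking, went from 215 and 221 to 994 and 1028 in WT and from 260.2 and 212 to 213 and 212 in KO cells (difference -2.36 on the log2 scale, SE 0.27, adjusted p = 0.00184), and the ecto-5′-nucleotidase gene Nt5e from 553 and 923 to 4756 and 3667 in WT and from 252 and 224 to 262 and 280.3 in KO cells (difference -2.36 on the log2 scale, SE 0.42, adjusted p = 0.0214). Cck, a peptide hormone, was below the background in WT cells and fell from 2679.7 and 2373 to 378 and 421 in KO cells (difference -2.64 on the log2 scale, SE 0.36, adjusted p = 0.00428). Sox10 (-2.68), Scara3 (-2.64), Mgll (-2.38) and Etv4 (-2.08) were the others with the most negative differences, and for Sox10 and Mgll, as for Cck, every untreated and TG array of WT cells was below the background. In the other direction, decorin, Dcn, fell in WT and rose in KO cells, from 4916 and 2675 to 721 and 978 in WT and from 13021 and 10937 to 23299.7 and 25559 in KO cells (difference 3.14 on the log2 scale, SE 0.42, adjusted p = 0.00318). H2-K1 went from 1677 and 3128 to 767 and 591 in WT and from 421.5 and 409.9 to 1346 and 771 in KO cells (difference 3.06 on the log2 scale, SE 0.57, adjusted p = 0.0296), Psmb9 from 1234 and 2235 to 305 and 299 in WT and from 259.8 and 337 to 366 and 354 in KO cells (difference 2.74 on the log2 scale, SE 0.54, adjusted p = 0.04) and the protease inhibitor gene Serpina3n from 529 and 580.0 to 242 and 223 in WT and from 384.5 and 303 to 1646 and 1181 in KO cells (difference 3.28 on the log2 scale, SE 0.55, adjusted p = 0.0129). Elmo1, a regulator of Rac, was below background in WT cells and rose from 332 and 339.8 to 1573 and 1369 in KO cells (difference 2.24 on the log2 scale, SE 0.29, adjusted p = 0.00289), beside Pdlim5 (2.20), Dusp23 (2.02) and Igsf9 (1.95). Before treatment the WT and KO pairs overlapped for Hid1 and Etv4 and lay apart for the other genes named here. With 1 of the 8 arrays left out, the highest adjusted p was 0.137 for Nt5e, 0.199 for Sox10, 0.13 for Scara3, 0.0514 for Mgll, 0.0843 for Etv4, 0.167 for H2-K1, 0.202 for Psmb9, 0.0948 for Serpina3n and 0.176 for Igsf9, and each of the others named kept its call.

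**Figure D5:**
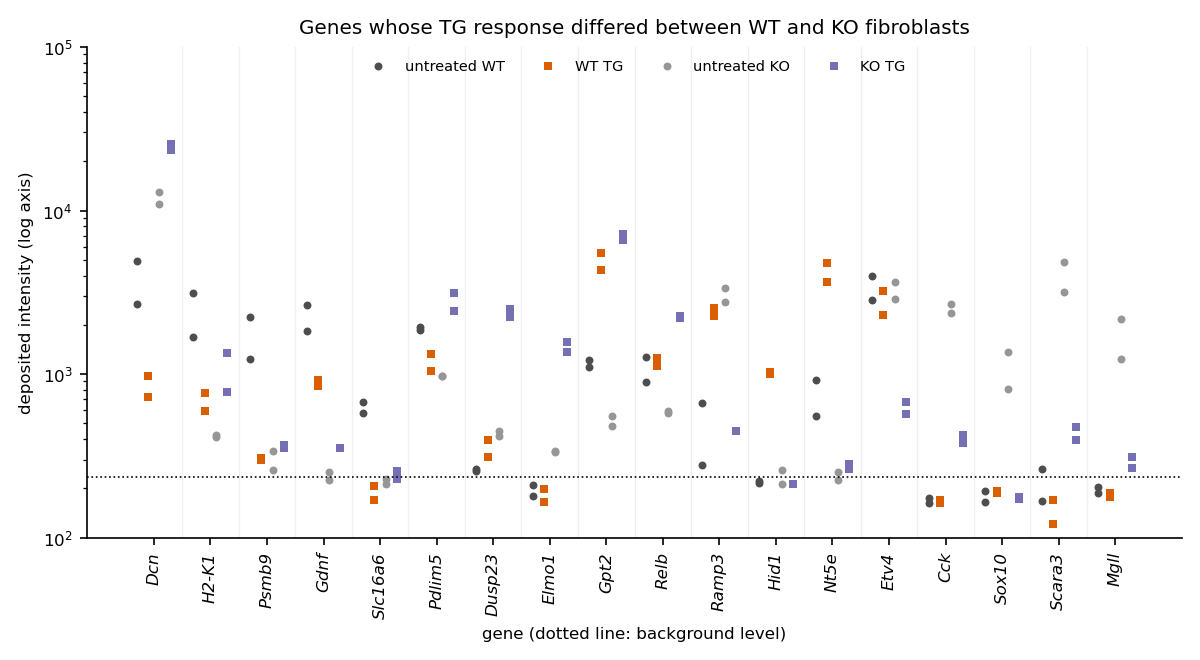
Signal intensity (log scale) of selected genes with a called response difference, each point 1 array. Shown are untreated and TG-treated WT cells and untreated and TG-treated KO cells. The dotted line is the background level, and Ramp3 rose in WT and fell in KO cells.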

How the data were processed

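Biotin-labelled cRNA of 24 samples was hybridised to Illumina Mouse-6 arrays and processed by the authors in GenomeStudio (version not given in the sources used here). The deposited normalized values are linear signal intensities, 1 per probe and array. Sorted within arrays, they differed between the 24 arrays at the same rank by a median of 0.0816% and at most 4.47%, as after quantile normalization, and no background had been subtracted. A second deposited table holds non-normalized signals in 24 columns whose names match no sample label, and it was not used here.

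The log2 of the deposited intensities was taken. The mode of the background, 182, and its spread, 0.157 on the log2 scale, were estimated from the values, and the upper tail of 0.01 gave a level of 235 (7.88 on the log2 scale). Of 45281 probes, 25990 (57.4%) were above it on at least 1 array and were kept. By the platform annotation, 34885 probes had 1 gene symbol, 18 several and 10378 none, and 34807 were matched by gene ID to RefSeq. Each gene was taken from the brightest of its kept probes, by the mean over all arrays, and where a group had both arrays below the level, bounds were computed from that level.

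limma 3.58.1 (R 4.3.3, lmFit and eBayes) was fitted with 12 group means over all 24 arrays (12 residual and 3.46 prior degrees of freedom), with Benjamini-Hochberg adjustment over all kept probes, and genes were called at an adjusted p under 0.05 and a change of at least 2-fold. The contrasts were TG against untreated and against TM in WT cells, and the KO response minus the WT response. The number of arrays, 2 a group, limits the precision. Same-numbered arrays deviated together (r = 0.225 for untreated and TG WT cells, median 0.379 and range 0.137 to 0.767 over 66 pairs of groups, all above 0.1), so that the numbers were taken to pair the samples and the fit with the replicate number as a block was run beside the main one. The fit was also run on simulated data with known changes and independent noise. That noise holds no shared deviation of same-numbered arrays, so the run does not cover it.

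Named genes were, among those called, the 20 highest and 20 lowest above background in both groups, 8 in each direction that were below background in 1 group, up to 4 of each list, 24 fixed genes of the ER stress and Siah pathways, and the 8 most extreme in each direction of the other contrasts (for TG against TM, of the fit of those 4 arrays, since the fit over all groups called none). Other genes complete the count of a list and were named after their values were seen. Another probe of a named gene is given where its log2 fold change, in the direction of the call, was below 0.3. The comparison, the lists and the rules were chosen with earlier results of these data known. The alternatives were the filter and level of the background, the arrays fitted, the replicate block, the threshold, the variance model, array weights, subtraction of the background, centring, the summary of probes, and leaving out 1 array.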

Additional observations from a re-analysis of the deposited data

Results flagged for a closer look

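The TG response of 19 named genes differed between KO and WT cells by a test of the difference itself (limma, KO response minus WT response, adjusted p under 0.05 and at least 2-fold), and this is what marks them for a closer look. Negative values, on the log2 scale, were found for Ramp3 (-5.22), Sox10 (-2.68), Scara3 (-2.64), Cck (-2.64), Mgll (-2.38), Hid1 (-2.36), Nt5e (-2.36) and Etv4 (-2.08). Etv4, a growth factor-responsive transcription factor, went from 2848 and 3956 to 2302 and 3199.7 in WT and from 3656 and 2876 to 566 and 677 in KO cells, and Scara3, a scavenger receptor, went from 264 and 167 to 169.7 and 121 in WT and from 3195 and 4872 to 471 and 395 in KO cells. Positive values were found for Serpina3n (3.28), Dcn (3.14), H2-K1 (3.06), Psmb9 (2.74), Elmo1 (2.24), Pdlim5 (2.20), Dusp23 (2.02), Igsf9 (1.95), Gdnf (1.89), Slc16a6 (1.87) and Mustn1 (1.18). Gdnf, a neurotrophic factor, went from 1841 and 2653 to 849.8 and 923 in WT and from 251 and 224 to 352 and 353 in KO cells. For Mustn1 and Slc16a6 both TG arrays of WT cells were below the background, so their differences depend on the background level. Mustn1 was also below it on every KO array (178 and 163 untreated, 202 and 169 with TG). Slc16a6 was below it on both untreated KO arrays (229 and 212), so a fall of these genes in KO cells could not be measured. In untreated KO cells Gdnf and Psmb9 (260 and 337) lay near the background, which leaves little room for a fall. With 1 of the 8 arrays left out, the call was kept in 1 fit for Mustn1 (adjusted p up to 0.131) and in 4 for Slc16a6 (up to 0.0921), and in all 8 for Gdnf. With TG in WT cells the probe used for Igsf9 had a log2 fold change of -1.87, and its other probes above background gave -0.24 and 0.14. The cause of the differences between KO and WT cells was not tested.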

How the results depend on the processing

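The counts for TG against untreated WT cells, 282 higher and 231 lower, stayed within 1.5 times except in the settings given here. With the adjusted p and no fold threshold they were 541 and 477, and with the replicate block within chip sets 379 genes were lower. Leaving out 1 array gave 170 to 299 higher and 109 to 218 lower genes. The replicate block over all arrays gave 333 and 307, ended 0 calls, added 127 and made Calr a called increase and Serpina3n a called decrease (adjusted p = 0.0406). Of the list counts, those it moved by more than 1.5 times are in the report or here: members called lower went from 1 to 4 of the growth factors, 0 to 1 of Wnt and Notch, 1 to 2 of the homeobox genes, 1 to 3 of the fibroblast markers, 1 to 2 of the neural markers and 0 to 1 of the bone, cartilage and fat markers. Taking the mean of a gene's probes ended 121 calls, the fit of WT arrays alone 133, the fit of the 4 arrays 96, subtraction of the background 51 and no filter on dim probes 43, whereas centring ended 0. In each of these settings 0 called genes changed sign.

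For TG against TM, 0 higher and 0 lower genes in the fit over all groups became 36 and 10 in the fit of these 4 arrays, 6 and 2 with the replicate block, 15 and 6 with the block within chip sets, 1 and 1 with an intensity trend and robust variances, 27 and 7 with array quality weights, 8 and 2 with the background subtracted and 36 and 8 at an unadjusted p, and stayed at 0 without any 1 array.

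For the response difference, 38 larger and 27 smaller values became 3 and 4 in the fit of these 8 arrays, 93 and 63 with the replicate block, 137 and 90 with the block within chip sets, 99 and 57 with array quality weights, 75 and 54 with the background subtracted and 212 and 162 at an unadjusted p. Leaving out 1 array gave 16 to 36 larger and 5 to 21 smaller values. Fewer arrays lower the degrees of freedom; other causes were not tested. The 4-array and 8-array fits have 2 and 4 residual degrees of freedom. Arrays carry no read depth, and signal near the background of 182 limits what can be said of dim genes.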

Other observations

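Genes outside the lists also changed, and the groups given here were formed after their values were seen, so they carry no test as groups. Of 7 snoRNA host transcripts measured, 4 rose and 0 fell with TG: Snhg12 (3.26), Snhg16 (2.93), Snhg5 (2.68) and Snhg17 (1.64), as log2 fold changes. Snhg5 went from 3481 and 2909 to 17799 and 23253 (adjusted p = 0.00286). Some genes of lysosomal enzymes and membrane proteins were among those called lower: Hgsnat (-1.85), Cln3 (-1.60), Sidt2 (-1.59), Npc2 (-1.24), Gusb (-1.18), Tpp1 (-1.14) and Pla2g15 (-1.10). They were picked from the called genes, and the lysosomal genes tested were not counted. Atp6v0d1 (1.13), of the lysosomal proton pump, was called higher. Cln3, a lysosomal membrane protein, went from 833 and 939 to 291 and 291 (log2 fold change -1.60, SE 0.26, adjusted p = 0.00159), and Gusb, β-glucuronidase, went from 5779.8 and 5021 to 2484.5 and 2288 (log2 fold change -1.18, SE 0.33, adjusted p = 0.0469). Npc2 (adjusted p = 0.0651) lost the call without TG replicate 1. Tpp1 (adjusted p = 0.067) lost the call without TG replicate 2. Snhg17 (adjusted p between 0.0752 and 0.153) and Gusb (adjusted p between 0.136 and 0.232) lost the call whichever of the 4 arrays was left out.

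Some genes of DNA repair and replication were called lower beside those of the cell cycle list, among them Lig1 (-1.41), the replicative ligase, Pold1 (-1.10), a replicative polymerase, Msh6 (-1.12), of mismatch repair, Fancd2 (-1.37), Rad54l (-1.64) and Uhrf1 (-1.21), which maintains DNA methylation. The number of such genes tested was not counted. The related transcription factors Snai1 and Snai2 moved apart: Snai2 from 1912 and 1533 to 5516 and 6108 (log2 fold change 1.76, SE 0.38, adjusted p = 0.0101) and Snai1 from 2646 and 1806 to 728 and 822 (log2 fold change -1.50, SE 0.36, adjusted p = 0.0203). Wfs1, an ER membrane protein whose loss causes Wolfram syndrome, rose from 721 and 432 to 1645.5 and 1637 (log2 fold change 1.56, SE 0.29, adjusted p = 0.00439), and Saraf, which damps store-operated calcium entry, from 5152 and 5639 to 13416 and 14606 (log2 fold change 1.38, SE 0.28, adjusted p = 0.00768). Gch1, which makes the cofactor tetrahydrobiopterin, rose from 3113 and 2555 to 18035 and 16728 (log2 fold change 2.62, SE 0.31, adjusted p = 0.000101), and Arntl, of the circadian clock, from 774 and 757 to 2919.8 and 2679.7 (log2 fold change 1.87, SE 0.24, adjusted p = 0.000234). Wfs1 (adjusted p = 0.0781) lost the call without untreated replicate 2. Rad54l (adjusted p between 0.0552 and 0.0555) lost the call without untreated replicate 1 or TG replicate 2. Pold1 (adjusted p between 0.0538 and 0.167), Snai1 (adjusted p between 0.0961 and 0.162) and Saraf (adjusted p between 0.054 and 0.0769) lost the call without untreated replicate 1, TG replicate 1 or TG replicate 2. Snai2 (adjusted p between 0.0685 and 0.0981) lost the call without untreated replicate 2, TG replicate 1 or TG replicate 2. Pold1 (adjusted p = 0.0773) lost the call in the fit of the 4 arrays alone. Another probe of Lig1 (-0.03) and Uhrf1 (-0.18) gave the smaller or opposite log2 fold change in parentheses.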
